A study of Homo sapiens with 3 samples.

Results

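The genes described here are 41 human genes of amino acid use: 19 cytosolic aminoacyl-tRNA synthetases, which load each tRNA with its amino acid, and 22 genes of the integrated stress response, the pathway that leads through the transcription factor ATF4. They were taken from a fixed list of gene symbols, matched to the RefSeq transcripts of the deposited table. The matching used no measured value, but the list was drawn up with earlier results of these data known. All 41 genes had at least 1 transcript in the table, 73 of the 20104 transcripts there, and 12582 genes were measured in all. Total RNA was sequenced from SW480, an established human colon adenocarcinoma line, 48 hours after transduction with 1 shRNA (a short hairpin RNA) that targets RBMS1, or with control shRNA. There was 1 shRBMS1 library and there were 2 shControl libraries, all made from one cell line. The sources used here do not say whether both controls carried the same hairpin. RBMS1 binds A+U-rich stretches of RNA, and the comparison shows how these genes stood in the 1 library made to reduce it. With 1 hairpin and 1 such library, effects of RBMS1 loss cannot be told apart from other differences of that library.

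Cells that lack an amino acid, or whose endoplasmic reticulum is stressed, phosphorylate the initiation factor eIF2α. General translation then slows while the ATF4 mRNA, which carries short upstream reading frames, is translated more. ATF4 pairs with C/EBP proteins at composite elements in its target genes, among them amino acid transporters, enzymes of serine, proline and asparagine synthesis, and many tRNA synthetases. Because ATF4 is controlled largely at translation, its mRNA level alone does not measure the protein. In proliferating tumour cells the pathway is known for keeping up the supply of amino acids and one-carbon units.

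The measured quantity is a log2 fold change per RefSeq transcript, shRBMS1 over shControl, as the authors deposited it, and several transcripts of 1 gene were joined by their median. A positive value means a higher level in shRBMS1 cells. No level or count of a single library was analysed here: the depth is unknown, no spread between replicates can be set beside any value and no test was run. In bulk RNA, fewer cells that express a gene and less RNA per cell cannot be told apart. The direction was fixed by placing RBMS1 lower in shRBMS1 cells: its 2 transcripts stood at log2 fold changes of −1.62 and −1.36 in the authors' deposited table, a median of 35.6% of control. Of markers fixed for the cell type, 7 of 11 colon epithelial genes had a row in the table, against 2 of 10 leukocyte, 0 of 10 fibroblast and 1 of 10 endothelial genes. The 7 epithelial genes had a median log2 fold change of −0.43 with 2 of them lower by at least 1, and the part of that difference in the results below was not tested.

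The DNA element that ATF4 and C/EBP proteins share, TGATGNAA, stood within the 250 bases before the start of 7 of the 35 listed genes with an entry in RefSeq's promoter table (GRCh38.p14). That is 20.0% of them, against 216 of 10012 measured genes with an entry (2.16%) and 1061 of all 27305 genes of that table (3.89%). Both strands were searched, and any start that the promoter table gives for a gene counted. Transcript models of another annotation can start elsewhere, so before and after refer here to the starts of that table. With the 50 bases after the start included, a window added after the data were seen, 11 of the 35 genes (31.4%) held it, against 254 of the 10012 measured genes (2.54%). The other 24 of the 35 genes did not hold it. The list holds known ATF4 targets, so these shares are not independent of how the list was chosen. The sites of the 11 genes are shown here with 11 bases on each side. Capitals mark the element, each read along the strand on which it reads TGATGNAA.
AARS1, chr16:70289675-70289704, plus strand: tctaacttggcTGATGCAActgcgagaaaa
ASNS, chr7:97872458-97872487, minus strand: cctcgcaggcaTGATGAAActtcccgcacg
CARS1, chr11:3057407-3057436, plus strand: ttcctagaatcTGATGCAAccgccgccccg
CEBPG, chr19:33374060-33374089, plus strand: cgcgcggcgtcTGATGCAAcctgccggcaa
CHAC1, chr15:40953251-40953280, minus strand: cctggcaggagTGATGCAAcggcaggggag
GARS1, chr7:30594834-30594863, minus strand: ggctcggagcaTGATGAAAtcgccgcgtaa
IARS1, chr9:92293692-92293721, plus strand: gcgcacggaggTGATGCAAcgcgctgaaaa
MARS1, chr12:57488053-57488082, minus strand: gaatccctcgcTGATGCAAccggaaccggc
NARS1, chr18:57621804-57621833, minus strand: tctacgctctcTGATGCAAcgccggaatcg
PPP1R15B, chr1:204412026-204412055, minus strand: cccgccccggcTGATGCAAcctcacgctgc
TARS1, chr5:33440956-33440985, minus strand: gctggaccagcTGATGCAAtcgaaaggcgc
All but ASNS and GARS1 carried the form TGATGCAA, which 9 of the 35 genes and 67 of the 10012 measured genes (0.669%) had in the longer window. The element of ASNS, the enzyme that makes asparagine, lay 68 to 61 bases before its start in RefSeq's promoter table. In CHAC1, which breaks down glutathione, it lay 209 to 202 bases before the start. In CARS1 and MARS1 it crossed the start, and in NARS1 and TARS1 it lay just after it. Before the start by the promoter table, the element stood in AARS1, GARS1 and IARS1, 3 of the 16 synthetases with a promoter entry (18.8%). CARS1, MARS1, NARS1 and TARS1 held it only in the window added later, in which 7 of the 16 (43.8%) had it. LARS1, PSPH, PYCR1, SHMT2, VARS1 and YARS1 were not searched.

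The listed genes as a whole stood close to 0. Their median log2 fold change was 0.03, with quartiles of −0.19 and 0.18, beside a median of 0.01 and quartiles of −0.25 and 0.23 over all measured genes. Of the 41 genes 18 lay below 0 (43.9%, against 48.5% of all genes) and 23 above. Within 0.5 of 0 lay 36 of them (87.8%), against 76.9% of all genes. A fold threshold of 1 on the log2 scale, a level of 50% or 2-fold of control, was passed downward by 2 genes, SHMT2 and CHAC1. That share of 4.88% stood near the 3.96% of all genes that were lower by this much. None of the 41 genes was higher by at least 1, where 3.95% of all genes were. Among single transcripts, 5 of 73 (6.85%) were lower by at least 1 and 5 were higher, beside 7.86% and 8.27% of all transcripts.

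**Figure D1:**
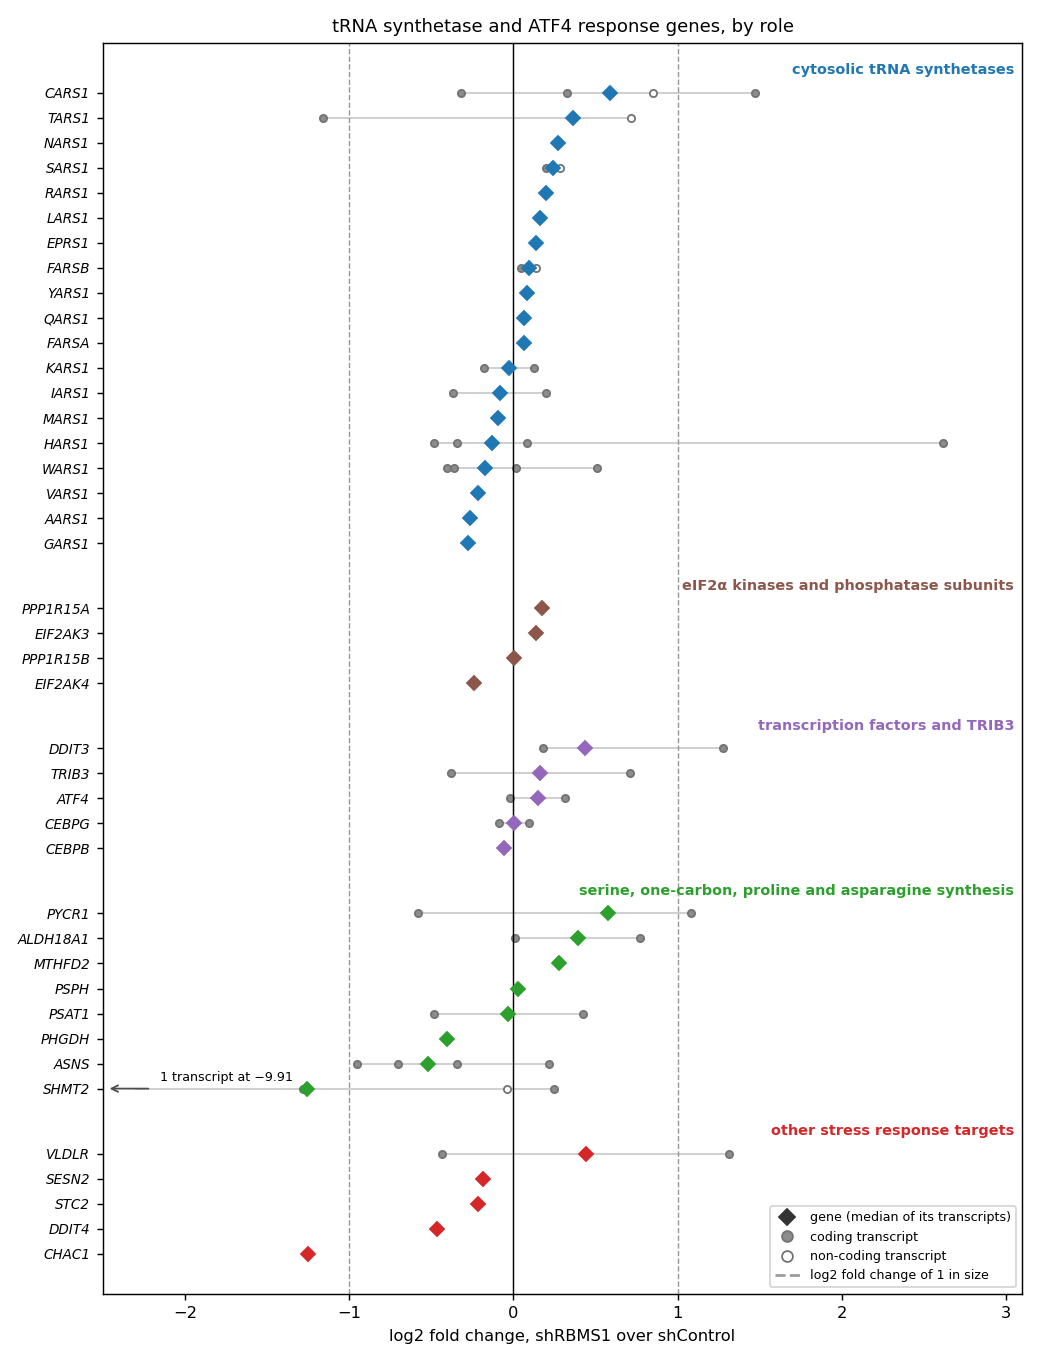
Log2 fold change of the 41 genes, shRBMS1 over shControl, grouped by role. Diamonds are genes (median of transcripts), circles are single transcripts (open where non-coding), grey lines join the transcripts of a gene and dashed lines mark a size of 1. The arrow marks a transcript of SHMT2 at −9.91, outside the axis. Only SHMT2 and CHAC1 lie beyond a dashed line as genes, while transcripts of HARS1, CARS1, TARS1, DDIT3, PYCR1 and VLDLR do as well.

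As medians per gene, the cytosolic tRNA synthetases lay in a narrow band. Their median log2 fold change was 0.06, with 11 above 0 and 8 below. Within 0.5 of 0 lay 18 of the 19 (94.7%), against 76.9% of all genes. The 11 synthetases with 1 transcript ran from −0.28 for GARS1, the glycyl enzyme, to 0.27 for NARS1, the asparaginyl enzyme, in the authors' deposited table. In levels these ends are 82.5% and 121% of control, and the other synthetases with 1 transcript stood between them. Below 0 on that scale were AARS1 (alanine) at −0.26, VARS1 (valine) at −0.21 and MARS1 (methionine) at −0.09 in the authors' deposited table. Above 0 were RARS1 (arginine) at 0.20, LARS1 (leucine) at 0.16 and EPRS1 (glutamate and proline, in 1 chain) at 0.14 in the authors' deposited table. YARS1 (tyrosine) stood at 0.08, QARS1 (glutamine) at 0.06 and FARSA, the α subunit of the phenylalanyl enzyme, at 0.06 in the authors' deposited table. The β subunit FARSB lay beside its partner, at a median of 0.09 from transcripts at 0.05 and at 0.14 in the authors' deposited table.

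Divisions of the synthetases by fold, complex or known ATF4 control gave medians close to each other. The 9 class I enzymes and the 9 class II enzymes, 2 unrelated folds of the catalytic domain, had medians of 0.06 each, with EPRS1, which holds both, left out. The 7 enzymes of the multisynthetase complex, a particle in which several synthetases are bound together, had a median log2 fold change of 0.06, against 0.07 for the 12 outside it. The 12 that are recalled as ATF4-induced had a median of 0.11 and the 7 others 0.06. Enzymes of the complex had the narrowest range, from −0.09 for MARS1 to 0.20 for RARS1, and those outside it ran from −0.28 for GARS1 to 0.59 for CARS1.

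**Figure D2:**
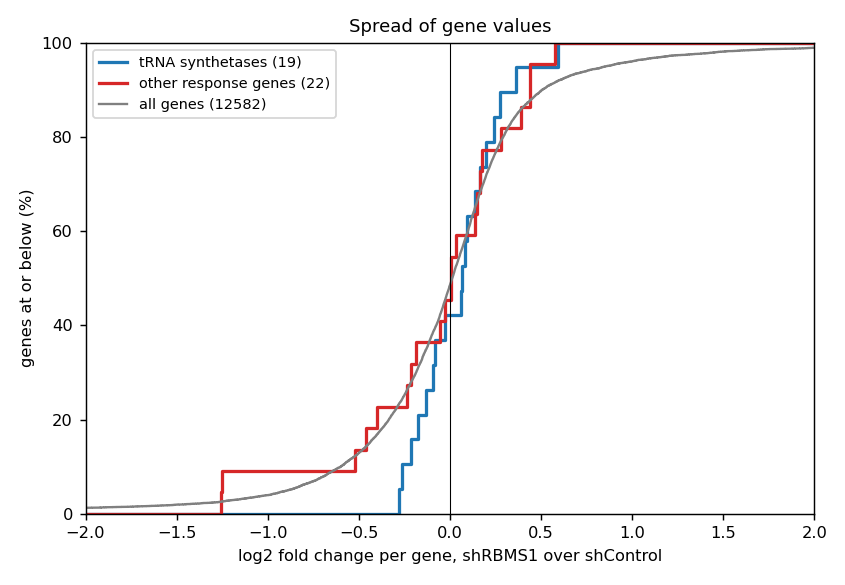
Share of genes at or below each log2 fold change, for 19 tRNA synthetases, the 22 other response genes and all 12582 measured genes. The synthetases begin at −0.28 and end at 0.59, and the other response genes have 2 members below −1 and none above 0.58. The x axis stops at −2 and 2, beyond which only the line of all genes continues.

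The 8 synthetases with several transcripts held all of the larger differences among the synthetases, and these were differences between transcripts of 1 gene. CARS1, the cysteinyl enzyme on chromosome 11 at 3000929 to 3057423, was the highest gene of all 41 at a median log2 fold change of 0.59. Its transcripts differed: NM_001194997, with the longest coding sequence (2496 bases), stood at 1.47 and NM_001751 (2247 bases) at −0.32 in the authors' deposited table. NM_139273 was at 0.33 and the non-coding NR_036542 at 0.85 in the authors' deposited table. HARS1, the histidyl enzyme, had 1 transcript far from the others, NM_001258040 at 2.61 in the authors' deposited table. The other 3 of HARS1 stood at 0.08, at −0.34 and at −0.48 in the authors' deposited table, so that the gene's median was −0.13. TARS1, the threonyl enzyme, had NM_152295 at −1.16 and NM_001258437 at 0.36 in the authors' deposited table, although both have a coding sequence of 2172 bases. Its non-coding NR_047677 was at 0.72 in the authors' deposited table.

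WARS1, the tryptophanyl enzyme, is made in a full-length form and in a shorter form that lacks the first residues. Both transcripts with the longer coding sequence of 1416 bases lay below 0, NM_173701 at −0.40 and NM_004184 at −0.36 in the authors' deposited table. Both with the shorter one of 1293 bases lay above, NM_213645 at 0.51 and NM_213646 at 0.02 in the authors' deposited table. These pairs did not overlap, although NM_213646 stood close to 0, and their median of −0.17 as a gene describes neither. Of all genes with several transcripts, 66.5% had them on both sides of 0. Each form of WARS1 has few transcripts, and whether their values go with the form was not tested. KARS1 (lysine) had transcripts at −0.18 and 0.13, IARS1 (isoleucine) at −0.36 and 0.20, and SARS1 (serine) at 0.20 and 0.28 in the authors' deposited table.

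The sensors and regulators of the pathway stood close to 0 as genes. EIF2AK4, which encodes the kinase GCN2 that senses uncharged tRNA, was at a log2 fold change of −0.24 in the authors' deposited table, 84.8% of control. EIF2AK3, which encodes the kinase PERK of the endoplasmic reticulum, had a log2 fold change of 0.14 in the authors' deposited table, or 110% of control. The phosphatase subunits that reverse eIF2α phosphorylation were at 0.18 for the stress-induced PPP1R15A and 0.01 for the constitutive PPP1R15B in the authors' deposited table. All 4 genes lay between −0.24 and 0.18, and each rests on 1 transcript.

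ATF4 itself, on chromosome 22 at 39520559 to 39522686, had a median log2 fold change of 0.15, or 111% of control. Its transcripts share a coding sequence of 1056 bases and differ in exons, NM_001675 at −0.02 and NM_182810 at 0.32 in the authors' deposited table. Of its partners, CEBPB stood at −0.06 and the transcripts of CEBPG at −0.09 and 0.10 in the authors' deposited table. DDIT3, the transcription factor CHOP that is induced late in the response, had transcripts at 1.28, at 0.44 and at 0.18 in the authors' deposited table, all above 0. TRIB3, a pseudokinase that restrains ATF4, had transcripts at 0.71 and at −0.38 in the authors' deposited table. For DDIT3, TRIB3, IARS1 and FARSB, 2 of the transcripts named here were assigned the same GENCODE 29 model. Only the first linked model of each transcript was used, so whether this annotation separates them was not tested. By whole gene spans, 5 of the 41 genes overlap another measured gene. CEBPB shares 1487 bases with CEBPB-AS1 (median log2 fold change 0.23), YARS1 797 with S100PBP (−0.02), IARS1 133 with SNORA84 (0.51), and DDIT3 and MARS1 share 65 with each other. The sources used here do not say whether reads were counted by strand, so the values of these 5 genes are uncertain to that extent.

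Enzymes that make amino acids went in both directions, 4 of 8 below 0, with a median log2 fold change of 0.00. SHMT2, the mitochondrial serine hydroxymethyltransferase on chromosome 12 at 57229711 to 57234935, was the lowest of all 41 genes at a median of −1.25, or 41.9% of control. That value came from 1 kind of its transcripts. NM_001166357, NM_001166358 and NM_001166359, whose coding sequence of 1452 bases is the shorter form known to lack the mitochondrial import sequence, stood at −1.28, at −1.25 and at −9.91 in the authors' deposited table. NM_005412, which encodes the full mitochondrial form in 1515 bases, was at 0.24 and the non-coding NR_029417 at −0.04 in the authors' deposited table. In GENCODE 29 the full form starts at 57229327, upstream of the shorter form's starts at 57230086, 57230328 and 57230360. No transcript in the table lay beyond 10 in size while 109 lay between 9 and 10, so a value of −9.91 can stand for a level near 0 in shRBMS1 cells. Whether it does was not tested, since no levels were analysed.

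ASNS, asparagine synthetase on chromosome 7 at 97851677 to 97928441, had a median log2 fold change of −0.52, or 69.7% of control. Of its 4 transcripts 3 lay below 0, at −0.95, −0.70 and −0.34, and NM_183356 was at 0.22 in the authors' deposited table. PHGDH, the first enzyme of serine synthesis, was at −0.40 in the authors' deposited table, 75.6% of control. The next enzyme, PSAT1, split by form: NM_058179, with 9 exons, stood at −0.49 and NM_021154, with 8, at 0.43 in the authors' deposited table. PSPH, the last step, was at 0.03 and MTHFD2, which carries the one-carbon unit on in mitochondria, at 0.28 in the authors' deposited table. The 3 steps of serine synthesis therefore stood at −0.40, −0.03 and 0.03 as genes.

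Proline synthesis lay above 0. ALDH18A1, its first enzyme, had transcripts at 0.77 and at 0.01 in the authors' deposited table, a median of 0.39. PYCR1, its last, was the highest enzyme of this group at a median of 0.58, or 149% of control, from transcripts at 1.08, at 0.58 and at −0.58 in the authors' deposited table. The low transcript of PYCR1, NM_001282279, has the shortest coding sequence of the 3, at 867 bases against 951 and 960.

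**Figure D3:**
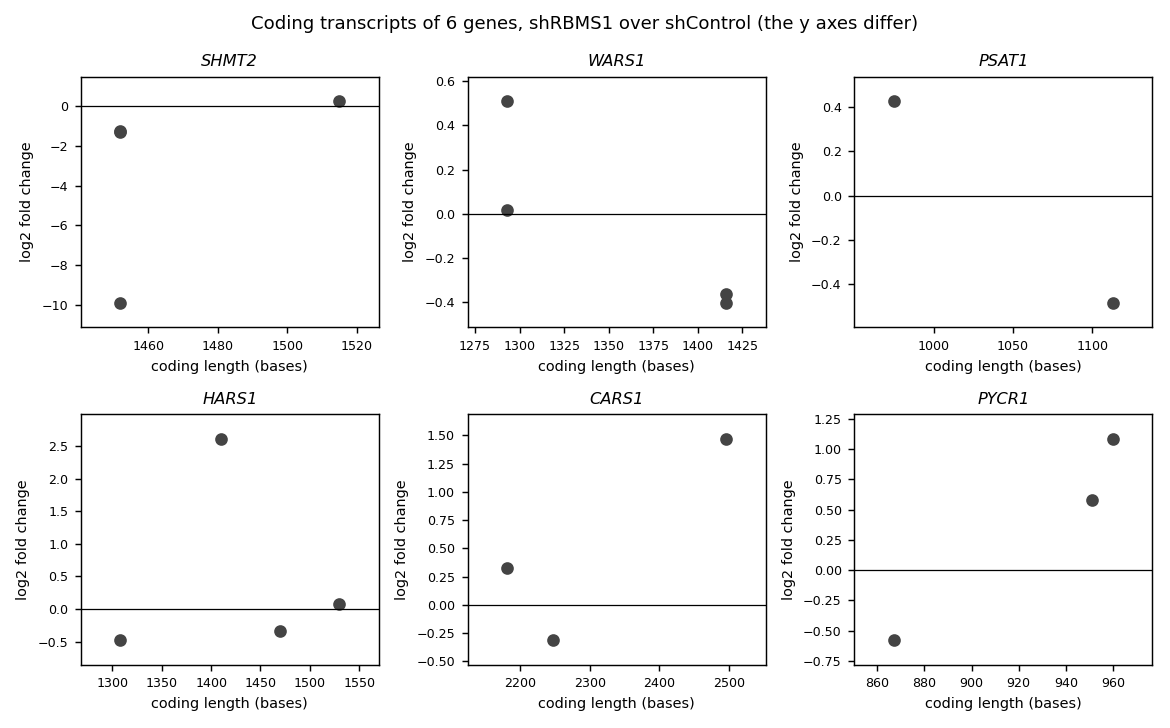
Log2 fold change, shRBMS1 over shControl, of each coding transcript against its coding length in bases (stop codon included, from the linked GENCODE 29 models) for 6 genes, with a y axis of its own in each panel. In SHMT2 the 3 transcripts of 1452 bases lie below 0, at −1.25, −1.28 (one point over the other) and −9.91, and the longer one above it. In WARS1 the longer pair lies below 0 and the shorter pair above it, and in HARS1 and CARS1 there is no such order.

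Of the other stress response targets 4 of 5 lay below 0, where 48.5% of all genes did, with a median log2 fold change of −0.22. CHAC1, on chromosome 15 at 40953471 to 40956512, was at −1.25 in the authors' deposited table, 42.1% of control, and rests on 1 transcript, as do all members of this group but VLDLR. At that value 2.62% of all genes were as low or lower. DDIT4, an inhibitor of mTORC1, was at −0.46, the secreted glycoprotein gene STC2 at −0.22 and the leucine sensor SESN2 at −0.19 in the authors' deposited table. VLDLR, a lipoprotein receptor, had NM_003383 at 1.32 and NM_001018056, which lacks an exon, at −0.43 in the authors' deposited table. Among the 23 listed genes with 1 transcript, CHAC1 alone lay beyond 0.5 in size, and 22 (95.7%) lay within it, against 80.2% of all genes with 1 transcript.

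Of the 18 listed genes that have more than 1 transcript, 9 had a distance over 1 between them on the log2 scale, beside 49.3% of all such genes in the table. Their median spread was 1.00, against 0.98 over all genes with several transcripts. In 14 of the 18 genes (77.8%) transcripts lay on both sides of 0, as they did in 66.5% of all such genes. The sources used here do not say how reads were divided between the transcripts of 1 gene.

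The values of genes with the ATF4 element overlapped those of the other listed genes. The 7 genes with it before the start had a median log2 fold change of −0.26, with 5 below 0 and a range of −1.25 for CHAC1 to 0.0066 for PPP1R15B. The 28 with a promoter entry and no element there had a median of 0.11, with 11 below 0 and a range of −0.46 to 0.59. Over measured genes of any kind, the 216 with the element before the start had a median of −0.03, with 117 below 0. The 9796 with a promoter entry and without it had a median of 0.01, with 4757 below 0. In the longer window, added after the data were seen, the 11 genes with the element had a median of −0.08 with 6 below 0 and a highest value of 0.59 for CARS1, and the 24 without it had a median of 0.08. The 3′ UTR motif ATATA, a sequence of the kind that RBMS1 binds, occurred in 15 of the 40 listed genes with an annotated 3′ UTR (37.5%), against 6574 of 11189 genes (58.8%). The listed genes had shorter 3′ UTRs, with a median of 609 bases against 1134. Those with the motif had a median log2 fold change of 0.08 and the 25 without it 0.03, beside 0.02 with it and −0.0048 without it over all genes. VLDLR held the most of these sites (14), and SHMT2 held 0, as did ASNS, PHGDH and CARS1. CHAC1 had no linked model and was not searched for ATATA.

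Other genes of the same supply lines were read from lists chosen by function. Amino acid transporters had the lowest median of these lists, −0.36 over 10 genes. Of these, 6 lay below 0, where 48.5% of all genes did, and 1 was lower by at least 1, where 3.96% were. SLC6A9, a glycine transporter, stood at −2.35 and SLC7A11, the cystine carrier, at −0.93 in the authors' deposited table, each from 1 transcript. SLC7A1 (arginine and lysine) was at −0.52, SLC7A5 (leucine and other large amino acids) at −0.48 and SLC1A4 (serine and alanine) at −0.25 in the authors' deposited table. SLC1A5, the main glutamine carrier, was at a median of −0.60 from transcripts between −0.83 and −0.05 in the authors' deposited table. The remaining 4 stood at or above 0, from 0.00 for SLC38A2 to 0.36 for SLC43A1 as medians. SLC3A2, the shared partner chain of SLC7A5 and SLC7A11, had a median of 0.02 with transcripts between −1.87 and 0.47 in the authors' deposited table.

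The non-enzyme parts of the synthetase machinery lay above 0. All 4 genes did so as medians per gene, where 6475 of all 12582 genes did. Their median was 0.32: EEF1E1 at 1.01, AIMP1 at 0.39, AIMP2 at 0.26 and the tRNA exporter XPOT at 0.13. AIMP1 lay on both sides of 0 by transcript, its lowest being −0.06 and its highest 0.83. EEF1E1, a scaffold of the complex, was the only one of the 4 higher by at least 1, where 3.95% of all genes were. Its values as the authors deposited them were 0.36 and 1.66. Mitochondrial tRNA synthetases had a median of 0.11 with 13 of 17 above 0 and none past 1 in size, from TARS2 at −0.60 to SARS2 at 0.997. Both ends rest on transcripts far apart, between −2.69 and 3.58 for TARS2 and at −0.05 and 2.05 for SARS2 in the authors' deposited table.

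Subunits of eIF2 and eIF2B and partners of GCN2 had a median log2 fold change of 0.14 with 10 of 14 above 0. As medians they ran from the kinase gene EIF2AK1 at −0.33 to the kinase gene EIF2AK2 at 0.42, all 14 within 0.5, where 76.9% of all genes were. EIF2AK2 joined transcripts at −0.19 and 1.04, and EIF2B4 transcripts between −1.40 and 0.42 in the authors' deposited table. Other ATF4 targets and partners, with 18 measured among 21, had a median of 0.14 with 12 above 0. CTH, an enzyme of cysteine synthesis, was lowest at −0.998 (50.1% of control, just inside the threshold) and the pro-apoptotic BBC3 highest at 1.51, the 1 gene of that list past it. Each is the median of transcripts far apart, −1.93 and −0.07 for CTH and −1.19 and 4.21 for BBC3 in the authors' deposited table.

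**Figure D4:**
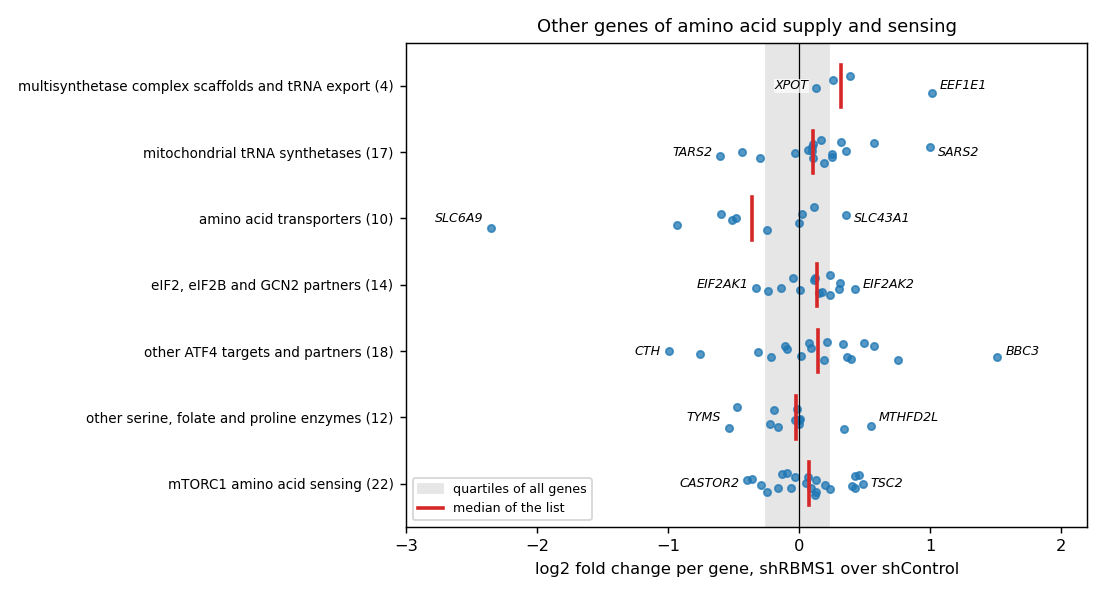
Log2 fold change per gene, shRBMS1 over shControl, for 7 lists of related genes, with the number measured in parentheses. Points are genes, shifted up or down only for sight, red bars are medians and the grey band runs between the quartiles of all genes (−0.25 to 0.23). Amino acid transporters have a median of −0.36, left of the band, and complex scaffolds with tRNA export one of 0.32, right of it.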

How the data were processed

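Total RNA of SW480 cells was sequenced in 1 shRBMS1 and 2 shControl libraries, grouped by the labels' shRNA field. Tools listed in the submitters' processing notes are STAR 2.5, Cufflinks and Cuffdiff, with the build hg38, and neither roles nor settings are listed. The deposited values are log2 fold changes per RefSeq transcript, computed by the authors. The sources used here give no filters and no depth per library, so no interval, floor or p-value was computed.

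Per the file headers the column is a log fold change, without base or direction. Base 2 was taken from spacing: 20 transcripts lay 1 away, within 1.5e-05, from a value seen at least 3 times, against 4 at ln 2 and 5 at log10 of 2. Direction was set by RBMS1, and the other choice would turn every sign.

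RefSeq's gene table (GRCh38.p14, the same assembly as hg38) named 19818 transcripts (98.6%), and 286 stayed out of gene values. Coding length and 3′ UTR came from GENCODE 29 through RefSeq links (71 of 73 listed transcripts), by the first model where a transcript had several. Transcripts of 1 gene were joined by their median, and a size of 1 was the threshold. Every listed gene is named, with the lowest and highest gene of each related list. The remaining transporters, AIMP1, AIMP2, the epithelial summary and the ATATA counts were added after values were seen. Of the listed genes 13 have a named pseudogene in RefSeq, and the sources used here do not say how reads were shared with them. Members and lists were chosen with earlier results of these data known. Summaries and the motif search were tested on simulated data. Python 3.11.15, numpy 2.4.6, pandas 2.3.3 and matplotlib 3.10.9 were used.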

Additional observations from a re-analysis of the deposited data

How the results depend on the processing

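With no replicate spread, a median was taken as moved when it shifted by more than 0.1 and a count when it changed by over 1.5 times. By that measure 140 of 177 values of counts and medians stayed. Genes lower by at least 1 numbered 1 in place of 2 with the least changed transcript, the transcript of lowest accession number, without transcripts at or beyond 5, among genes with transcripts within 1, and among genes with 1 transcript, and 0 at a threshold of 2. CHAC1 was that 1 gene, since SHMT2 depends on its short form and stood at 0.24 by its transcript of lowest number. Genes higher by at least 1 numbered 1 by the transcript of lowest number and 1 at a threshold of 0.58. Lower transcripts numbered 1 at a threshold of 2, and higher ones 9 at 0.58 and 1 at 2. Listed genes with transcripts more than 2 apart numbered 2. Promoters held TGATG alone in 14 of the 35 genes (40.0%), beside 2352 of 10012 measured genes (23.5%), and the full element in 7 of the 35. With the bases after the start, a window added after seeing the data, 11 genes held the full element.

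With the least changed transcript, medians were −0.056 for transcription factors and TRIB3, 0.13 for enzymes of amino acid synthesis, −0.43 for other stress targets, 0.19 for complex scaffolds, −0.020 for eIF2 genes, −0.080 for other ATF4 targets and −0.027 for mTORC1 genes. By the transcript of lowest number they were −0.019 for transcription factors, 0.14 for enzymes, −0.25 for transporters and −0.049 for other ATF4 targets. Among genes with transcripts within 1 they were 0.00 for transcription factors (0.0043), −0.34 for other stress targets, 0.00011 for ATF4-induced synthetases and −0.50 for transporters. With 1 transcript they were −0.056 for transcription factors, −0.34 for other stress targets, −0.10 for class II synthetases, −0.075 for synthetases outside the complex, 0.19 for complex scaffolds and −0.52 for transporters. With coding transcripts they were 0.00011 for ATF4-induced synthetases and −0.041 for those outside the complex. The cause was not tested. In the settings that keep all 41 genes their median lay between 0.0066 and 0.063. It was 0.0055 over the 32 genes with transcripts within 1 and 0.0066 over the 23 with 1 transcript. Of the 41 genes 11 changed sign under the least changed transcript and 8 under the lowest number. The median of transporters was below 0 in every setting. No paired analysis was possible because the table holds 1 ratio per transcript and no value per library, and for the same reason no replicate could be left out.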

Other observations

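Genes through which mTORC1 senses amino acids, with 22 measured among 23, had a median log2 fold change of 0.08, with 13 above 0. As medians per gene all 22 lay within 0.5 of 0, where 76.9% of all genes did and 48.5% of all genes lay below 0. Single transcripts lay further out, between −9.66 and 2.66 for MLST8 and between −0.20 and 5.85 for TSC1 in the authors' deposited table. CASTOR2, a relative of the arginine sensor, stood lowest, at −0.40 in the authors' deposited table, and TSC2, which restrains mTORC1, was highest at a median of 0.48, joining −0.42 and 1.38 in the authors' deposited table. Other enzymes of serine, folate and proline use, with 12 measured among 14, had a median of −0.03 with 8 below 0. Thymidylate synthase, TYMS, was lowest at −0.54 and the folate enzyme MTHFD2L highest at 0.55 in the authors' deposited table.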
